A study of Mus musculus with 12 samples.

Results

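Cdk8 knockout and Cdk19 knockout cells, both carrying the transforming H-Ras G12V mutant, were compared across all genes. The 6 libraries titled as one or the other knockout, of 12 in the series, were chosen by their labels, 3 from each knockout. All were RNA-seq libraries of rRNA-depleted total RNA from BMEL cells, a bipotential mouse embryonic liver line whose cells can become hepatocytes or cholangiocytes. The groups were Cdk8 -/- cells with H-RasG12V, Cdk19 -/- cells with H-RasG12V, cells with H-RasG12V and no knockout (RasG12V cells below) and untransformed wild-type cells. Every group came from a line derived from a mouse with floxed Cdk8 alleles (CDK8F/F), and every group grew exponentially on collagen with serum, insulin, IGFII and EGF. How Ras and the knockouts were introduced, whether a group was a clone or a pool, and whether its 3 libraries were separate cultures is not given in the sources used here, so p-values measure the spread between these libraries, which may be technical.

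Cdk8 and Cdk19 are paralogous kinases. Either one can join cyclin C, Med12 or Med12l and Med13 or Med13l to form the kinase module of Mediator, which passes signals from enhancer-bound transcription factors to RNA polymerase II. The module binds Mediator reversibly and can lower or raise transcription, depending on the gene. Both kinases are found in most cells, and expression was compared here between cells that lack one and cells that lack the other. Each knockout was a single labelled group, so effects of the kinase lost cannot be told apart from other differences between the groups.

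Expression differed at 496 of 13648 genes tested, which is 3.63%: 355 genes (2.6%) were higher and 141 (1.03%) were lower in the Cdk8 knockout than in the Cdk19 knockout. Most differences were small. Of the genes called, 61 were higher and 26 lower by at least 1 on the log2 scale, while 174 were higher and 89 lower by under 0.5. A gene was called at an adjusted p under 0.05 in edgeR's quasi-likelihood test, adjusted by Benjamini-Hochberg across the whole table, and all fold changes below are the Cdk8 knockout over the Cdk19 knockout. Leading the genes higher in the Cdk8 knockout were Crisp1, Anxa10, Sprr2h, Clu and Akap12, and leading the lower ones were Adgra2, H1f0, Krt7 and Col8a1. At 2876 genes (21.1%) the libraries of the knockouts did not overlap, with the Cdk8 knockout higher at 1544 (11.3%) and lower at 1332 (9.76%). Of the 496 genes called, 494 did not overlap.

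**Figure D1:**
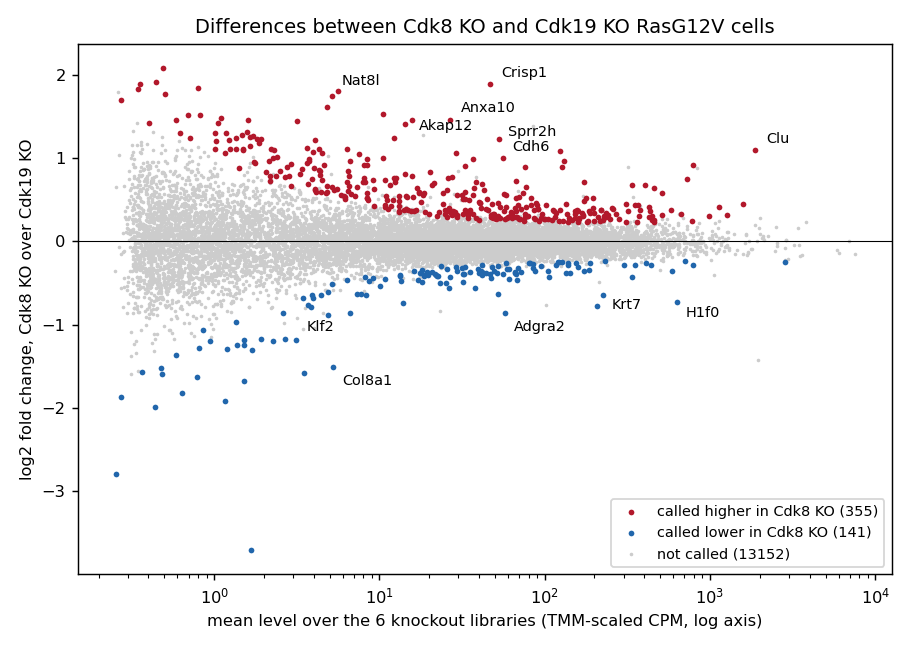
Each point is a gene tested, with its mean level over the 6 knockout libraries in CPM (gene counts scaled to library size with TMM factors, log axis) on the x axis and its log2 fold change, Cdk8 knockout over Cdk19 knockout, on the y axis. The 355 genes called higher are red, the 141 called lower blue and the other genes grey, and Crisp1 lies at 1.88 and Col8a1 at -1.51.

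The number of calls rested on which libraries were in the fit. Without Cdk8 knockout replicate 2 or 3 it was 301 and 276, and without Cdk19 knockout replicate 1 or 2 it was 298 and 294. A fit of all 12 libraries, in which the wide spread of the RasG12V and untransformed groups enters the test, called 15 genes.

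The 12 libraries held 24823560 to 36879661 gene counts each, and the 6 knockout libraries 28285546 to 36879661. The first principal component of the 6 libraries held 35.07% of the variance, with the Cdk8 knockout at -12.38 to -17.18 and the Cdk19 knockout at 9.32 to 17.79. RasG12V replicate 3 stood apart from its group over all 12 libraries (second component -50.86, against 12.53 and 11.71 in replicates 1 and 2), and untransformed replicate 3 lay at -14.61, against 9.33 and 15.59. Values of these groups are therefore shown per library, as levels only. Ribosomal RNA took 0.0503% to 0.0636% of gene counts in the Cdk8 knockout and 0.0759% to 0.0869% in the Cdk19 knockout, and its part in the differences was not tested. As marks of the cell type, summed cholangiocyte and progenitor markers were at 4118 to 4652 CPM, gene counts scaled to library size, in the Cdk8 knockout, against 3613 to 4036 CPM in the Cdk19 knockout. Summed hepatocyte markers were at 915 to 1128 CPM and 884 to 926 CPM in the same order, most of it Apob and Hnf4a. Of these 30 markers 18 were under 1 CPM in all 6 libraries, albumin (Alb) among them. The hepatocyte genes Ahsg, Apoa2, Cyp7a1 and Serpina1a had 0 counts in all 6 libraries.

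The promoters of 4 leading genes are printed here to show the sequence around their starts. In each direction they are the 2 with the smallest p among named genes that matched the promoter table, in which Adgra2, first by p among the lower genes, was not matched. Each runs from 250 bases before to 50 bases after the listed transcription start, on the gene's own strand, from RefSeq on GRCm38.p6. Capitals mark matches to TGANTCA, the AP-1 motif. The genes Crisp1 (minus strand, chr17:40319158-40319457) and Anxa10 (minus strand, chr8:62123144-62123443) were higher in the Cdk8 knockout, and H1f0 (plus strand, chr15:79027962-79028261) and Krt7 (plus strand, chr15:101412153-101412452) were lower.
Crisp1: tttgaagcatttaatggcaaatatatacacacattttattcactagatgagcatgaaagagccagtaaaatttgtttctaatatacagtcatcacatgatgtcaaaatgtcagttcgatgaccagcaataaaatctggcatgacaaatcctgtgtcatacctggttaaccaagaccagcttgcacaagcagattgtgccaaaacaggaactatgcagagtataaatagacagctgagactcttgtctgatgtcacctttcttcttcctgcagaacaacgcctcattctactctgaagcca
Anxa10: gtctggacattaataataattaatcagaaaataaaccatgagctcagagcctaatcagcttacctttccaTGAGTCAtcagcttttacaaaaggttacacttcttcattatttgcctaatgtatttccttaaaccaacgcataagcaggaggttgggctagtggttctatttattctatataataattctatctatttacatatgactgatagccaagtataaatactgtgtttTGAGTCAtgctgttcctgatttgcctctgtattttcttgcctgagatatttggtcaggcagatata
H1f0: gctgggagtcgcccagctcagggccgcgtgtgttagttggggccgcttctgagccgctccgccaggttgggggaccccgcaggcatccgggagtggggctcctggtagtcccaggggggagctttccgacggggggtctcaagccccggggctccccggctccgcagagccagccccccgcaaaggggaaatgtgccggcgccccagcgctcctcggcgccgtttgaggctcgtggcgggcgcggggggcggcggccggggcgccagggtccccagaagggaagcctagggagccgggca
Krt7: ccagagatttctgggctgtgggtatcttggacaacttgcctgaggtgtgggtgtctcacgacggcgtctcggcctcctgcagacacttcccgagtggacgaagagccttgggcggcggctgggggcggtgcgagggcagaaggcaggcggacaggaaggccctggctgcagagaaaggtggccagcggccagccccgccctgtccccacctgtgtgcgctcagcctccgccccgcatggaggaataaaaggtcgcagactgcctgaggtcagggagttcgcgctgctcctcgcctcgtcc
Only the Anxa10 window held any of the motifs searched on both strands, with TGAGTCA 180 and 16 bases upstream of the start. Over the promoters of the 27025 genes in the table, TGANTCA (AP-1) was in 8.97%, GGAATG (TEAD) in 16.6%, CCGGAAG (ETS) in 9.93%, CACGTG (E-box) in 8.09% and TTCNNNGAA (STAT) in 9.55%. No share is given for the genes called, since a promoter was matched for 261 of the 355 higher and 94 of the 141 lower genes, under the 80% asked of such a check.

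Between the knockouts, the targeted genes differed in the directions of their labels by small amounts. Cdk8 (chromosome 5, 146231230 to 146302874, plus strand, GRCm38) was at 41.5, 44.0 and 43.4 CPM in the Cdk8 knockout, against 52.8, 57.2 and 55.3 CPM in the Cdk19 knockout. All Cdk8 knockout libraries lay below all Cdk19 knockout libraries (log2 fold change -0.36, SE 0.07, adjusted p = 0.00515). With both kinases present, Cdk8 had 56.2, 56.4 and 51.0 CPM in RasG12V libraries. Untransformed libraries had 49.7, 45.9 and 43.9 CPM, the last of them within the range of the Cdk8 knockout. The Cdk19 gene, on the plus strand of chromosome 10 (40339564 to 40483818), was at 59.0, 63.0 and 70.1 CPM in the Cdk8 knockout, against 51.3, 45.1 and 53.2 CPM in the Cdk19 knockout. Here all Cdk8 knockout libraries lay above (log2 fold change 0.36, SE 0.08, adjusted p = 0.0162). RasG12V libraries had 64.6, 67.2 and 93.9 CPM of Cdk19 and untransformed libraries 88.6, 83.7 and 92.1 CPM. Cdk19 was not called without Cdk8 knockout replicate 2 (adjusted p = 0.0509), Cdk8 knockout replicate 3 (0.0878) or Cdk19 knockout replicate 2 (0.0916). A count over all exons of a gene does not test any single exon or the protein, so these levels do not check the knockout labels. Hras, to which reads of the introduced H-Ras may map, had 457, 446 and 453 CPM in the Cdk8 knockout, against 439.7, 403 and 426 CPM in the Cdk19 knockout, and was not called (log2 fold change 0.10, SE 0.06, adjusted p = 0.493).

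Among the other kinase module genes, Med12l, the paralog of Med12, differed. It had 2.62, 1.99 and 2.47 CPM in the Cdk8 knockout, against 0.742, 1.07 and 0.738 CPM in the Cdk19 knockout. Every Cdk8 knockout library was above every Cdk19 knockout library, at low levels (log2 fold change 1.46, SE 0.24, adjusted p = 0.00123). Med12, Med13, Med13l and Ccnc, the cyclin C gene, were not called, with log2 fold changes of -0.04, -0.13, -0.15 and 0.04. None of 26 Mediator core genes was called by edgeR, DESeq2 or limma-voom, and 3 were lower at an unadjusted p under 0.05. Their log2 fold changes lay between -0.28 and 0.14, the lowest in Med11, a head subunit (adjusted p = 0.178).

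The genes higher in the Cdk8 knockout by most, or with the smallest p, are given by what their products do. Crisp1, a cysteine-rich secretory protein known from the epididymis, had 68.5, 74.5 and 77.4 CPM in the Cdk8 knockout, against 18.2, 19.7 and 21.8 CPM in the Cdk19 knockout. The groups lay far apart relative to their spread, and the difference was 3.69-fold (log2 fold change 1.88, SE 0.08, adjusted p = 1.09e-10). Clu, which encodes the extracellular chaperone clusterin, had 2432, 2554 and 2681 CPM in the Cdk8 knockout, against 1164, 1083 and 1342 CPM in the Cdk19 knockout. It too showed no overlap, and was 2.14-fold higher (log2 fold change 1.10, SE 0.08, adjusted p = 1.60e-07). Serpinb2, an inhibitor of plasminogen activators, had 43.3, 35.9 and 39.0 CPM in the Cdk8 knockout, against 18.0, 20.7 and 18.0 CPM in the Cdk19 knockout (log2 fold change 1.06, SE 0.09, adjusted p = 9.77e-07). F3, tissue factor, which starts blood coagulation, had 156, 169 and 182 CPM in the Cdk8 knockout, against 82.1, 66.2 and 90.2 CPM in the Cdk19 knockout (log2 fold change 1.09, SE 0.10, adjusted p = 3.55e-05). For both genes the lowest Cdk8 knockout library was above the highest Cdk19 knockout library. Il33, a cytokine of the interleukin-1 family stored in the nucleus of epithelial cells, had 461, 513 and 525 CPM in the Cdk8 knockout, against 313, 321 and 308 CPM in the Cdk19 knockout (log2 fold change 0.67, SE 0.07, adjusted p = 6.53e-06).

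Enzymes, receptors and adhesion genes were also among the largest differences. Nt5e, CD73, an ectoenzyme that makes adenosine from AMP, had 20.3, 26.1 and 23.3 CPM in the Cdk8 knockout, against 7.24, 9.89 and 8.19 CPM in the Cdk19 knockout. The groups did not overlap (log2 fold change 1.46, SE 0.12, adjusted p = 9.77e-07). Mst1r, the receptor tyrosine kinase RON, had 12.6, 16.9 and 17.0 CPM in the Cdk8 knockout, against 4.06, 5.54 and 6.57 CPM in the Cdk19 knockout (log2 fold change 1.53, SE 0.16, adjusted p = 0.000113). Akap12, which anchors protein kinase A, had 21.3, 18.5 and 22.2 CPM in the Cdk8 knockout, against 7.59, 8.44 and 7.31 CPM in the Cdk19 knockout (log2 fold change 1.41, SE 0.10, adjusted p = 1.92e-07). In each of these genes every Cdk8 knockout library was the higher. Nat8l, the enzyme that makes N-acetylaspartate, had 9.79, 7.32 and 6.95 CPM in the Cdk8 knockout, against 2.72, 2.56 and 1.84 CPM in the Cdk19 knockout, where replicate 3 was lowest (log2 fold change 1.75, SE 0.17, adjusted p = 7.81e-06). Cyp2c68, a cytochrome P450, was higher by 1.80 (SE 0.18), although reads of the similar Cyp2c genes may be split among them. Lower expressed genes that were higher in the Cdk8 knockout were Lmcd1, a LIM-domain transcription cofactor (1.21, SE 0.17), and Fabp2, the intestinal fatty acid-binding protein (1.11, SE 0.14). Gimd1 was higher by 0.71 (SE 0.06, adjusted p = 1.96e-06), with 207, 229 and 211 CPM in the Cdk8 knockout, against 128, 133 and 134 CPM in the Cdk19 knockout.

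Others of the largest differences were in genes known from stomach, skin or bladder epithelium. Anxa10, an annexin typical of gastric epithelium, had 36.6, 42.2 and 39.3 CPM in the Cdk8 knockout, against 14.6, 13.4 and 15.0 CPM in the Cdk19 knockout. It was 2.76-fold higher, with no overlap (log2 fold change 1.46, SE 0.09, adjusted p = 9.26e-09). Sprr2h, a small proline-rich protein gene of the cornified envelope, had 73.2, 68.4 and 82.0 CPM in the Cdk8 knockout, against 31.2, 31.9 and 32.4 CPM in the Cdk19 knockout (log2 fold change 1.23, SE 0.08, adjusted p = 1.82e-08). The Sprr2 genes are near-identical in places, so the share of reads that belongs to Sprr2h itself is uncertain. Ivl, involucrin, another cornified envelope protein, had 14.5, 16.6 and 20.2 CPM in the Cdk8 knockout, against 7.10, 5.81 and 8.82 CPM in the Cdk19 knockout (log2 fold change 1.24, SE 0.15, adjusted p = 0.000352). Upk1b, a uroplakin of the urothelial membrane, had 5.96, 8.84 and 6.89 CPM in the Cdk8 knockout, against 2.19, 2.35 and 2.55 CPM in the Cdk19 knockout (log2 fold change 1.62, SE 0.17, adjusted p = 1.12e-05). Neither gene overlapped between the knockouts. Upk1b also marks mesothelial cells, and with Msln, mesothelin, it was 1 of 2 genes called of the 4 mesothelial markers tested. Summed mesothelial markers were at 1486 to 1550 CPM in the Cdk8 knockout, against 1199 to 1317 CPM in the Cdk19 knockout, nearly all of it Msln (1429.7, 1377 and 1409 CPM, against 1092, 1119 and 1188 CPM; adjusted p = 0.0088, or 0.0635 without Cdk19 knockout replicate 1), with Gpm6a at 0 in all 6 libraries. The part of such cells in these differences was not tested.

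**Figure D2:**
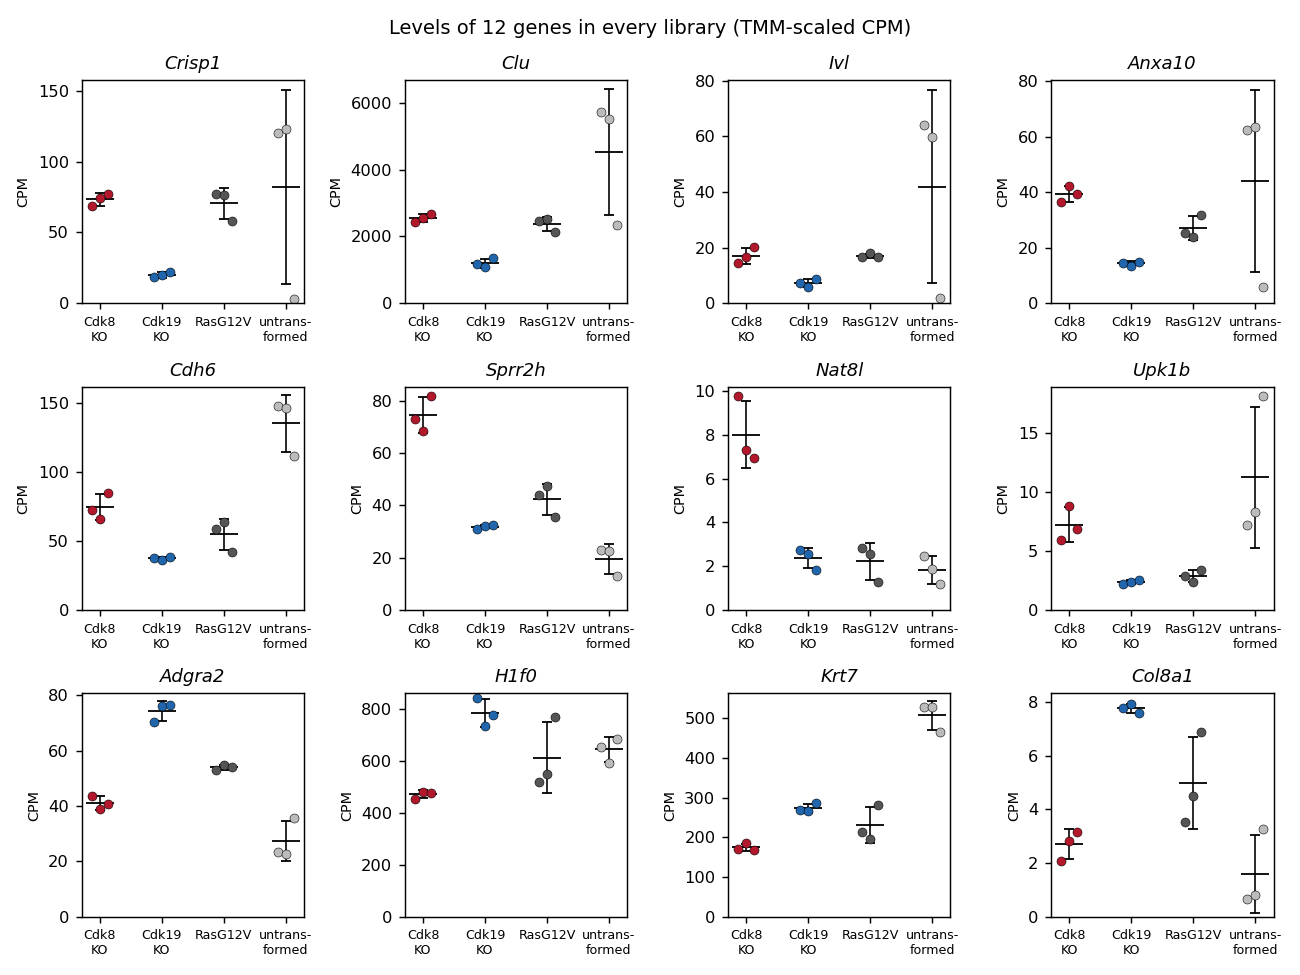
Each panel shows 1 gene, with its TMM-scaled CPM on the y axis and the 4 groups along the x axis. Points are libraries, the wide bar is the mean and the whiskers are the SD over 3 libraries. For the first 8 genes the Cdk8 knockout points lie above the Cdk19 knockout points and for Adgra2, H1f0, Krt7 and Col8a1 below them, while untransformed replicate 3 lies far from its group at Crisp1 and Ivl.

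Fewer genes were lower in the Cdk8 knockout. Their median log2 fold change was -0.41, against 0.51 among the higher genes, and 26 of the 141 lower and 61 of the 355 higher genes differed by 1 or more. Adgra2, an adhesion G protein-coupled receptor that serves Wnt7 signalling in endothelium, had 43.7, 38.8 and 40.6 CPM in the Cdk8 knockout, against 70.2, 76.0 and 76.5 CPM in the Cdk19 knockout. It was 1.81-fold lower in the Cdk8 knockout, with no overlap (log2 fold change -0.86, SE 0.07, adjusted p = 9.39e-07). H1f0, the linker histone that accumulates in cells that leave the cell cycle, had 454, 482 and 478 CPM in the Cdk8 knockout, against 841, 735 and 776 CPM in the Cdk19 knockout (log2 fold change -0.73, SE 0.07, adjusted p = 2.31e-06). Krt7, a keratin of bile duct epithelium, had 171, 185 and 168 CPM in the Cdk8 knockout, against 268, 266 and 287 CPM in the Cdk19 knockout (log2 fold change -0.64, SE 0.06, adjusted p = 7.81e-06). Both were lower in every Cdk8 knockout library than in any Cdk19 knockout library. Col8a1, a chain of the short-chain collagen VIII, had 2.09, 2.83 and 3.17 CPM in the Cdk8 knockout, against 7.77, 7.92 and 7.58 CPM in the Cdk19 knockout (log2 fold change -1.51, SE 0.15, adjusted p = 7.81e-06). This was the largest of the lower calls among protein-coding genes that averaged 5 CPM or more in either knockout. Csf1, the macrophage growth factor, had 43.9, 38.9 and 39.9 CPM in the Cdk8 knockout, against 61.5, 66.6 and 61.8 CPM in the Cdk19 knockout (log2 fold change -0.63, SE 0.07, adjusted p = 3.83e-05).

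Lower genes of known function covered matrix, transcription and metabolism. Acan, the proteoglycan aggrecan, had a log2 fold change of -0.89 (SE 0.16) and Klf2, a Kruppel-like factor, one of -0.87 (SE 0.15). Htra1, a secreted serine protease, was at -0.43 (SE 0.06). The metabolic enzymes Pcx, pyruvate carboxylase, and Aldh1a1, which makes retinoic acid from retinaldehyde, were at -0.56 (SE 0.08) and -0.43 (SE 0.07), with reads that Aldh1a1 may share with Aldh1a7. Gchfr, which regulates tetrahydrobiopterin synthesis, was at -0.64 (SE 0.12), the irritant-gated channel Trpa1 at -0.56 (SE 0.09) and the bZIP protein gene Crebzf at -0.46 (SE 0.07). These 8 genes were called in each of the 6 fits that left out 1 library. Less stable were the deubiquitinase Usp11 (-0.64), the receptor phosphatase Ptprd (-0.63), the glutathione transferase Gstm1 (-0.74, with reads that Gstm genes may share), the kinase Sgk2 (-0.61) and Gpr155 (-0.65), which were called in 5, 4, 3, 2 and 1 of those 6 fits.

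The level of these genes in RasG12V cells with both kinases is set beside those of the knockouts as a description only, since the genes were chosen for a difference between the knockouts. RasG12V replicates 1 and 2 are used here, and replicate 3 is given where genes are named. Of the 355 genes higher in the Cdk8 knockout, RasG12V overlapped the range of the Cdk8 knockout alone at 109, the range of the Cdk19 knockout alone at 105, and lay between the knockouts at 121. At 14 it lay outside both and at 6 it overlapped both. Of the 141 lower genes, RasG12V overlapped the Cdk8 knockout alone at 59, the Cdk19 knockout alone at 33, lay between at 37, outside at 9 and over both at 3. With all 3 RasG12V libraries, the range widened, and 159 higher and 52 lower genes overlapped the Cdk8 knockout alone, 66 and 37 the Cdk19 knockout alone, and 101 and 37 both, while 26 and 13 lay between and 3 and 2 outside.

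Single genes took each of these places. Clu had 2464, 2524 and 2119.8 CPM in the RasG12V libraries and Crisp1 77.1, 76.8 and 58.0 CPM, near the Cdk8 knockout for replicates 1 and 2 and well above the Cdk19 knockout in all 3. Nat8l had 2.84, 2.54 and 1.27 CPM and Upk1b 2.88, 2.33 and 3.36 CPM there, near the Cdk19 knockout and below the Cdk8 knockout. Sprr2h had 44.0, 47.4 and 35.7 CPM and Adgra2 52.9, 54.6 and 54.1 CPM, between the knockouts in each library. Csf1 had 36.5, 42.3 and 31.4 CPM, at or below the Cdk8 knockout, while Aldh1a1 had 379, 401 and 346 CPM, nearer to the Cdk19 knockout in replicates 1 and 2. Some genes were far from every transformed group in untransformed cells. Akap12 had 133, 120.1 and 39.5 CPM in untransformed libraries and Serpinb2 had 1.71, 1.86 and 0.0599 CPM.

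Gene lists of pathways and cell types were read by their counts beside the 2.6% of all genes tested that were higher and the 1.03% that were lower. They were chosen with earlier results of these data known, so their counts describe the members and test nothing. The median log2 fold change of all genes tested was -0.0041.

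Cholesterol synthesis genes, which the SREBP factors switch on when sterols are low, had 6 of 25 members higher in the Cdk8 knockout (24%), with a list median of 0.11. Cyp51, which removes a methyl group from lanosterol, had 119.6, 136 and 127 CPM in the Cdk8 knockout, against 90.7, 102 and 101 CPM in the Cdk19 knockout (log2 fold change 0.38, SE 0.07, adjusted p = 0.0041). The enzymes that follow it, Msmo1 and Nsdhl, were higher by 0.38 (SE 0.07) and 0.37 (SE 0.07). Early in the pathway, Hmgcs1, which makes hydroxymethylglutaryl-CoA, was higher (0.32, SE 0.08), as was Fdps, farnesyl diphosphate synthase (0.63, SE 0.15). Hmgcs1 was called in 2 of 6 fits that left out 1 library, with an adjusted p of up to 0.106. The differences were small, and the SREBP target Insig1 was at 0.07 and was not called. The libraries did not overlap for 13 higher and 2 lower members of 25, against 11.3% and 9.76% of all genes tested. The count of higher members was 3 when Cdk8 knockout replicate 2 or 3, or Cdk19 knockout replicate 1 or 2, was left out alone.

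Matrix proteases and their inhibitors had 4 of 19 members higher (21.1%), with a median of 0.24. Plat, tissue plasminogen activator, had 426, 397 and 442 CPM in the Cdk8 knockout, against 304, 298 and 333 CPM in the Cdk19 knockout (log2 fold change 0.44, SE 0.07, adjusted p = 0.000728). Plau, urokinase, was higher by 0.50 (SE 0.10) and the membrane-type metalloproteinase Mmp15 by 0.53 (SE 0.10), and the cathepsin Ctsb by 0.26 (SE 0.06). Ctsb was called in 1 of 6 fits that left out 1 library, with an adjusted p of up to 0.151. Mmp10 averaged 123.2 ± 18.2 CPM in the Cdk8 knockout, against 47.1 ± 17.6 CPM in the Cdk19 knockout (SD, n = 3 each), yet its wide spread left it uncalled in edgeR (log2 fold change 1.39, SE 0.31, adjusted p = 0.128). DESeq2 called 7 members of this list and limma-voom 6, all higher.

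Cadherins and protocadherins, which hold cells together through calcium, had 4 of 15 members higher (26.7%). Cdh6, the K-cadherin of kidney and other epithelia, had 72.6, 65.7 and 84.7 CPM in the Cdk8 knockout, against 37.4, 36.3 and 38 CPM in the Cdk19 knockout (log2 fold change 1.00, SE 0.08, adjusted p = 9.77e-07). Cdh17, the liver-intestine cadherin, had 423, 388 and 436 CPM in the Cdk8 knockout, against 282, 224 and 277 CPM in the Cdk19 knockout (log2 fold change 0.67, SE 0.08, adjusted p = 0.000126). Both genes showed every Cdk8 knockout library above the Cdk19 knockout. Pcdh9 (1.01, SE 0.14) and the sparsely expressed Cdh10 (1.48, SE 0.28) followed, while E-cadherin, Cdh1, was at 0.27 (SE 0.09) and was not called.

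Notch pathway genes had 3 of 10 members higher (30.0%): the ligand Jag1, the receptor Notch3 and the target Hey1. Notch signalling directs hepatic progenitors towards bile duct cells. Jag1 had 185, 157 and 192 CPM in the Cdk8 knockout, against 137, 131 and 143 CPM in the Cdk19 knockout (log2 fold change 0.38, SE 0.07, adjusted p = 0.0067). Notch3 had 4.96, 3.56 and 4.61 CPM in the Cdk8 knockout, against 2.44, 2.49 and 2.21 CPM in the Cdk19 knockout (log2 fold change 0.87, SE 0.17, adjusted p = 0.00641). Hey1 was higher by 0.77 (SE 0.19), but was called in 1 of 6 fits that left out 1 library, with an adjusted p of up to 0.122. The list median was 0.0077, and the other 7 members, whose log2 fold changes lay on either side of 0, were not called.

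**Figure D3:**
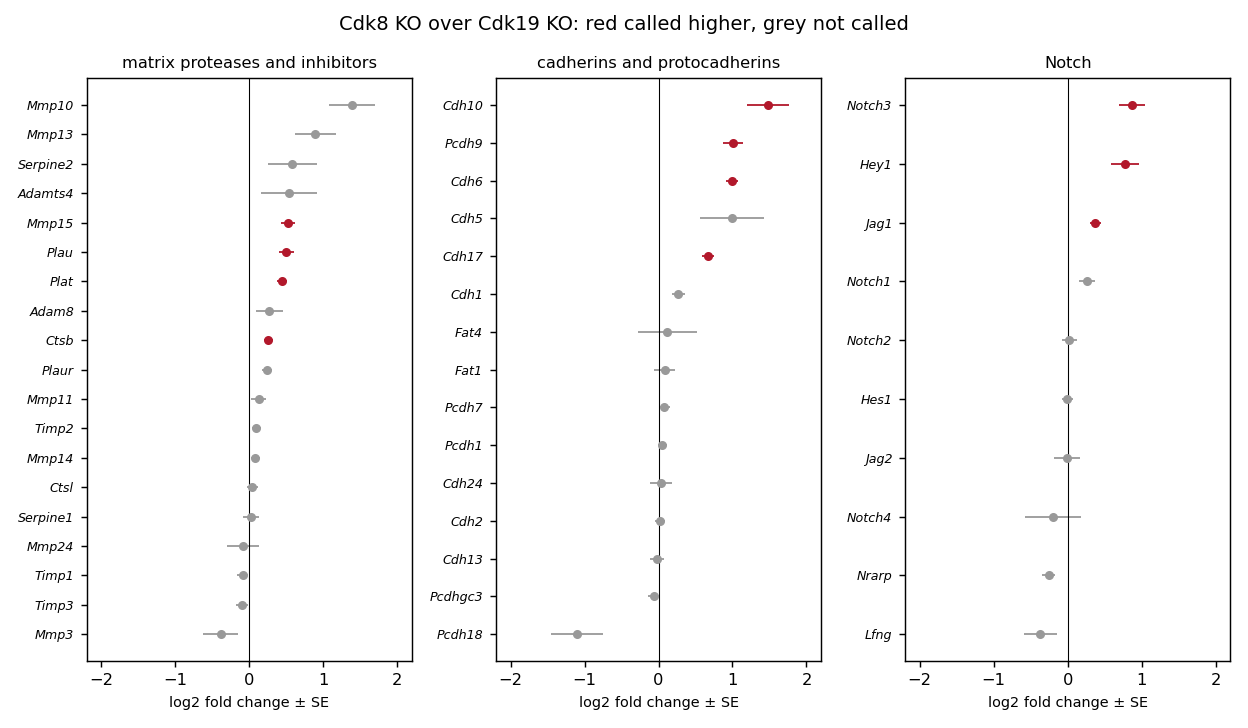
Log2 fold change (x axis, Cdk8 knockout over Cdk19 knockout) with its SE for every tested member of 3 lists, ordered by value. Red points were called higher and grey points were not called, and Mmp10 at 1.39 is a large but uncalled difference.

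Annexins and S100 proteins, which bind calcium, had 4 of 21 members higher (19%). Beside Anxa10, Anxa13 was higher by 0.52 (SE 0.07), Anxa11 by 0.32 (SE 0.08) and Anxa4 by 0.30 (SE 0.07). The EGF receptor ligands Areg, amphiregulin, and Ereg, epiregulin, were the 2 genes higher of 9 in the EGFR list. Areg had 218, 203 and 205 CPM in the Cdk8 knockout, against 169.8, 162 and 164 CPM in the Cdk19 knockout (log2 fold change 0.34, SE 0.06, adjusted p = 0.00376), and Ereg was higher by 0.32 (SE 0.07). In the p53 list Pmaip1, the BH3-only protein Noxa (0.30, SE 0.06), Btg2 (0.28, SE 0.07) and Perp (0.24, SE 0.06) were higher of 23. Anxa11, Anxa4, Ereg, Pmaip1, Btg2 and Perp were called in 2, 2, 3, 5, 2 and 0 of 6 fits that left out 1 library. The annexin count was 2 when Cdk8 knockout replicate 2 or 3, or Cdk19 knockout replicate 1 or 2, was left out alone.

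Matrix, integrin and guidance lists held a few calls each. Over all genes tested, the libraries did not overlap at 11.3% with the Cdk8 knockout higher and at 9.76% with it lower. Of 23 collagens and matrix glycoproteins, 3 were higher and 1 lower, and the libraries did not overlap for 6 higher and 4 lower members. Tnc, tenascin C, had 5.50, 4.35 and 5.76 CPM in the Cdk8 knockout, against 2.79, 2.59 and 3.09 CPM in the Cdk19 knockout (log2 fold change 0.88, SE 0.16, adjusted p = 0.00368). Fn1, fibronectin, was higher by 0.36 (SE 0.08), while Col5a1, a fibrillar collagen chain, was lower (-1.19, SE 0.22). Of 13 integrins, Itga1 (0.38, SE 0.09) and the laminin receptor chain Itga7 (0.35, SE 0.09) were higher, and the libraries did not overlap for 4 higher and 3 lower members. Of 33 axon guidance genes, the netrin receptor Unc5b, the netrin Ntn4 and the semaphorin Sema6a were higher, Unc5b at 363, 344 and 377 CPM in the Cdk8 knockout, against 282, 266 and 294 CPM in the Cdk19 knockout (log2 fold change 0.36, SE 0.06, adjusted p = 0.00268). Fn1, Itga1, Itga7, Ntn4 and Sema6a were called in 3, 4, 2, 0 and 0 of 6 fits that left out 1 library.

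Growth factor pathways held single genes of either direction. In the Wnt list of 18, the ligand Wnt5a and Rnf43, a ubiquitin ligase that removes Wnt receptors, were higher and the receptor Lgr6 was lower (-0.44, SE 0.09, but adjusted p = 0.0696 without Cdk8 knockout replicate 2). Wnt5a had 31.7, 30.5 and 36.4 CPM in the Cdk8 knockout, against 18.4, 18.5 and 21.3 CPM in the Cdk19 knockout (log2 fold change 0.76, SE 0.09, adjusted p = 5.98e-05). Rnf43 had 27.2, 24.5 and 27.9 CPM in the Cdk8 knockout, against 16.7, 15.5 and 16.9 CPM in the Cdk19 knockout (log2 fold change 0.70, SE 0.09, adjusted p = 8.74e-05). The groups did not overlap at either gene. In the TGF-beta list of 20, Pmepa1, a feedback inhibitor, was higher by 0.58 (SE 0.07), and so was the scarcely expressed ligand Bmp2 (1.91, SE 0.44), which was called in 3 of 6 fits that left out 1 library. In the YAP and TEAD list of 20, F3 was higher and the factor Tead4 was lower (-0.30, SE 0.08, called in 0 of those 6 fits). Of the list for A-kinase anchoring and cAMP, Akap12 was higher and Prkar2b, a regulatory subunit of protein kinase A, was lower (-0.46, SE 0.08), 1 each of 21.

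ATF4 and antioxidant lists held more lower than higher members. Of 21 ATF4 and unfolded protein genes, 3 were lower and 1 was higher. The factor Atf5 was lower (-0.43, SE 0.08), as were the amino acid transporter Slc7a5 (-0.26, SE 0.06) and Psat1 (-0.35, SE 0.09). Phgdh, the enzyme just before Psat1 in serine synthesis, was higher (0.40, SE 0.06), at 215, 227 and 223 CPM in the Cdk8 knockout, against 171, 171 and 161 CPM in the Cdk19 knockout. Of 23 Nrf2 and antioxidant genes 2 were lower, Srxn1, sulfiredoxin (-0.39, SE 0.08), and Gstm1, with a list median of -0.15. At an unadjusted p under 0.05 the members lower numbered 10, and no member was higher, in edgeR, against 16.4% of all genes tested in either direction. Slc7a5, Psat1 and Srxn1 were called in 2, 2 and 5 of 6 fits that left out 1 library.

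The ERK output and immediate early lists held a few calls, and the S phase and mitosis lists held none. Of 17 ERK output genes, 4 were higher and 2 lower at an unadjusted p under 0.05, against 16.4% of all genes tested in either direction. Of these 17 genes 1 was called (5.88%), against 3.63% of all genes tested. Ccnd1, cyclin D1, was lower, at 2574, 2546 and 2666 CPM in the Cdk8 knockout, against 3107, 3094 and 3081 CPM in the Cdk19 knockout (log2 fold change -0.25, SE 0.06, adjusted p = 0.0309). The groups did not overlap, but Ccnd1 was called in 1 of 6 fits that left out 1 library, with an adjusted p of up to 0.143. The ERK phosphatase Dusp6 and the ETS factor Etv5 were at 0.10 and 0.06 and were not called. Of 20 immediate early genes, Fos (0.84, SE 0.18, called in 4 of those 6 fits) and Btg2 were higher and Klf2 was lower. These calls were 15% of that list, and 5 members were higher and 2 lower at an unadjusted p under 0.05. None of 30 S phase and E2F genes was called by edgeR, DESeq2 or limma-voom, with 2 higher and 2 lower at an unadjusted p under 0.05. Their log2 fold changes lay between -0.20 and 0.23, the highest in Rrm2, a subunit of ribonucleotide reductase. None of 25 G2 and mitosis genes was called by the 3 tools, with 2 higher at an unadjusted p under 0.05 and a range of -0.22 to 0.22.

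Identity genes of the liver lineages moved in part. In the cholangiocyte and progenitor list Onecut2, Anxa4 and Cd24a were higher and Sox9, a factor of bile duct progenitors, was lower of 14. Sox9 had 41.4, 42.9 and 44.4 CPM in the Cdk8 knockout, against 55.0, 54.6 and 50.1 CPM in the Cdk19 knockout (log2 fold change -0.31, SE 0.07, adjusted p = 0.018), and Onecut2 was higher by 0.36 (SE 0.09). The adhesion protein gene Cd24a was higher by 0.25 (SE 0.06). In the hepatocyte list Trf, transferrin, was higher (0.43, SE 0.11), the only call among 13 members in edgeR, and limma-voom called none. The median of that list was 0.21. At an unadjusted p under 0.05 in edgeR, 7 hepatocyte members were higher and 0 lower. In the cholangiocyte and progenitor list 7 were higher and 1 lower at that threshold, against 16.4% of all genes tested in either direction. In the epithelial list of 22 members, the desmosomal genes Dsg2 (1.07, SE 0.16) and Dsp (0.28, SE 0.07) were higher and Krt7 was lower. Sox9, Onecut2, Cd24a, Trf and Dsp were called in 2, 2, 2, 1 and 2 of 6 fits that left out 1 library.

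Other lists held no called member in edgeR, with values given for the member of smallest adjusted p. They were EMT factors (7 members, Zeb2 at 0.21), MYC and nucleolar genes (20, Polr1b at -0.18), interferon response (14, Ifih1 at 0.40), antigen presentation (11, H2-K1 at 0.21, with reads that H2 genes may share), the IGF axis (13, Igfbp7 at 0.60) and ribosomal proteins (30, Rpl5 at -0.23). In these 6 lists DESeq2 called 1 ribosomal protein gene, as lower, and limma-voom called no gene. At an unadjusted p under 0.05 edgeR gave 1, 0, 2, 2, 2 and 0 higher members in that order, and 0, 3, 0, 0, 1 and 2 lower ones. In the glycolysis and hypoxia list Egln3, an oxygen-sensing hydroxylase, was higher (0.49, SE 0.13, called in 2 of 6 fits that left out 1 library), 1 of 23 members. Of the macrophage (4 tested), erythroid (1) and endothelial (1) markers none was called by the 3 tools, with 1, 0 and 1 higher at an unadjusted p under 0.05. The 10 macrophage and leukocyte markers summed to 40.5 to 47.0 CPM in the Cdk8 knockout, against 34.3 to 39.2 CPM in the Cdk19 knockout, most of it Cd14, with Adgre1, Cd3e and Tyrobp at 0. All endothelial and erythroid markers averaged under 1 CPM, and the 4 globin genes were at 0 in all 6 libraries. Of 2 stellate cell markers tested, Rgs5 was higher (0.957, 0.979 and 1.10 CPM in the Cdk8 knockout, against 0.353, 0.277 and 0.637 CPM in the Cdk19 knockout), called in 1 of 6 fits that left out 1 library.

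**Figure D4:**
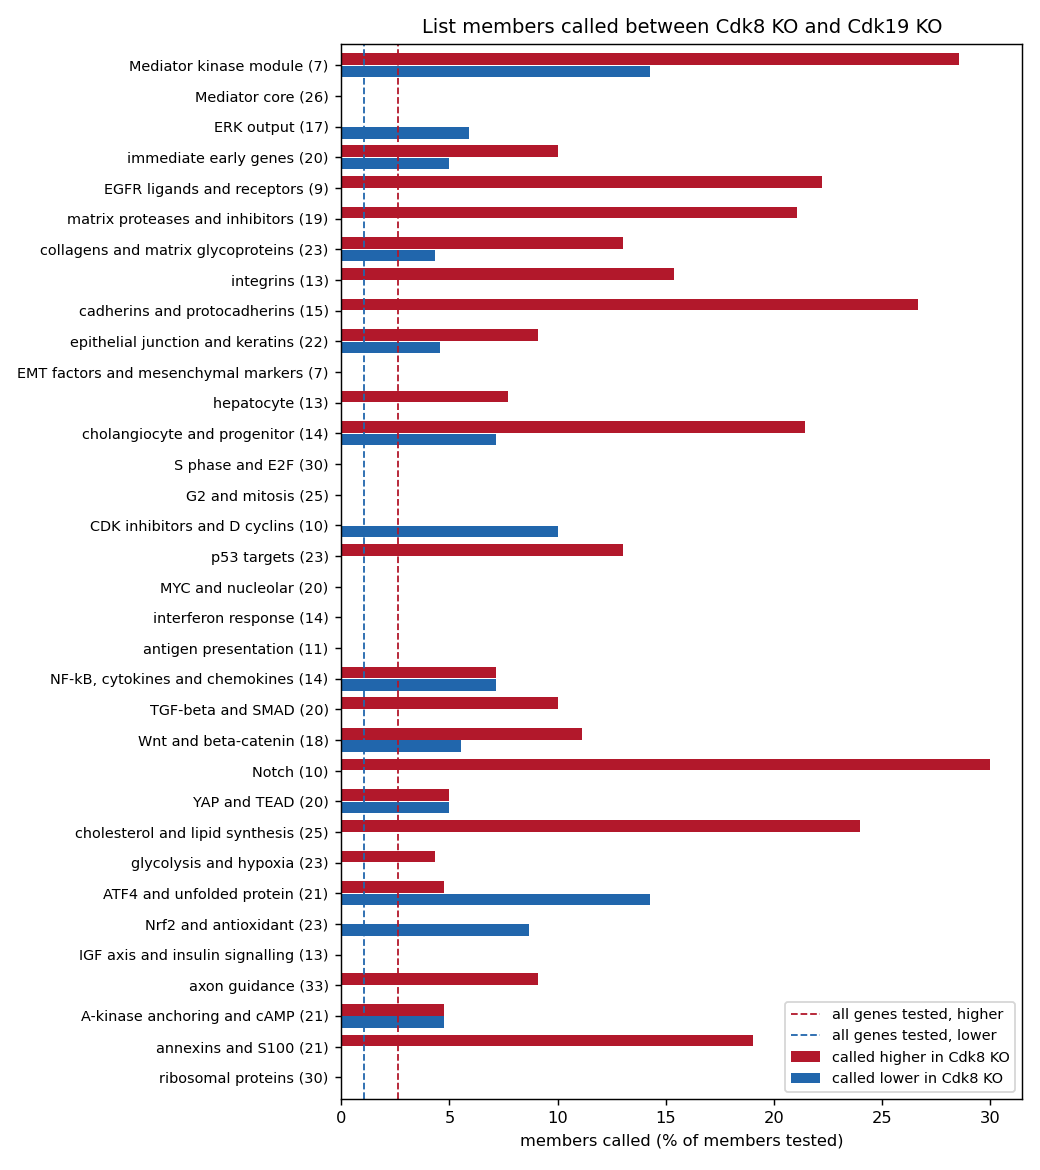
For each pathway list (number of tested members in brackets), the share of members called higher (red) and lower (blue) in the Cdk8 knockout, in percent on the x axis. Dashed lines mark the shares over all genes tested, 2.6% and 1.03%, and the cholesterol list reaches 24% higher while both cell cycle lists have no bar.

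Where genes lie in the genome was also compared. Chromosome 10, which holds Cdk19, had 39 of its 672 tested genes higher in the Cdk8 knockout and none lower in edgeR. DESeq2 called 44 of them higher and limma-voom 33, and neither called any lower. At an unadjusted p under 0.05, 124 were higher and 11 lower, beside 16.4% of all genes tested in either direction. It held 11% of all higher calls and 4.92% of the genes tested, and the remaining 316 higher calls lay on other chromosomes. The shift was small and broad. The median log2 fold change of the chromosome was 0.06, 69.0% of its genes were above 0, and the median was above 0 in 99.4% of 632 windows of 41 neighbouring genes. Other chromosomes had broad shifts too, the largest in the opposite direction. Chromosome 17 had a median of -0.0611, 35.5% of its genes above 0 and the median above 0 in none of its 580 windows, with 9 genes called higher and 9 lower. On chromosome 2 (median -0.0542) 4.09% of windows were above 0 and on chromosome 14 (median 0.0390) 92.8%. Calls also leaned to one side on chromosome 14, with 21 of 457 genes higher and 1 lower. The share of genes called in either direction was 6.08% on chromosome 19, against 5.80% on chromosome 10. Medians of the other 18 autosomes and the X chromosome lay between those of chromosomes 17 and 14.

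The same displacement was visible in each library. Relative to the mean of the 6 knockout libraries, the median log2 level of chromosome 10 genes was 0.033, 0.042 and 0.035 in the Cdk8 knockout, against -0.037, -0.043 and -0.031 in the Cdk19 knockout. In RasG12V it was 0.051, 0.029 and 0.067, and in untransformed cells 0.042, 0.038 and 0.038. The Cdk19 knockout libraries were thus the lowest of the 12, and the difference has no test here. Among the genes called on chromosome 10 were Unc5b, Ntn4, Itga7, Cd24a and Perp, which were named above with their lists. Akap12 led with 1.41, and 26 of the 39 were under 0.4. They lay along the whole chromosome and included Srgap1, a GTPase-activating protein of Slit and Robo signalling (0.62, SE 0.08), Tspan15 and Tspan8, tetraspanins (0.52, SE 0.08 and 0.42, SE 0.06), and Kitl, the ligand of the receptor Kit (0.32, SE 0.06). Psap, the precursor of lysosomal saposins (0.33, SE 0.07), and Gpx4, which protects membrane lipids from peroxidation (0.33, SE 0.07), were others, and these 6 genes were picked after their values were seen. Within 2 Mb of Cdk19, 1 of 26 tested genes was called, Slc16a10, higher by 0.31. Within 2 Mb of Cdk8 on chromosome 5, 1 of 34 was called, Baiap2l1, also higher. Both counts are near the 3.63% of all genes tested that were called.

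**Figure D5:**
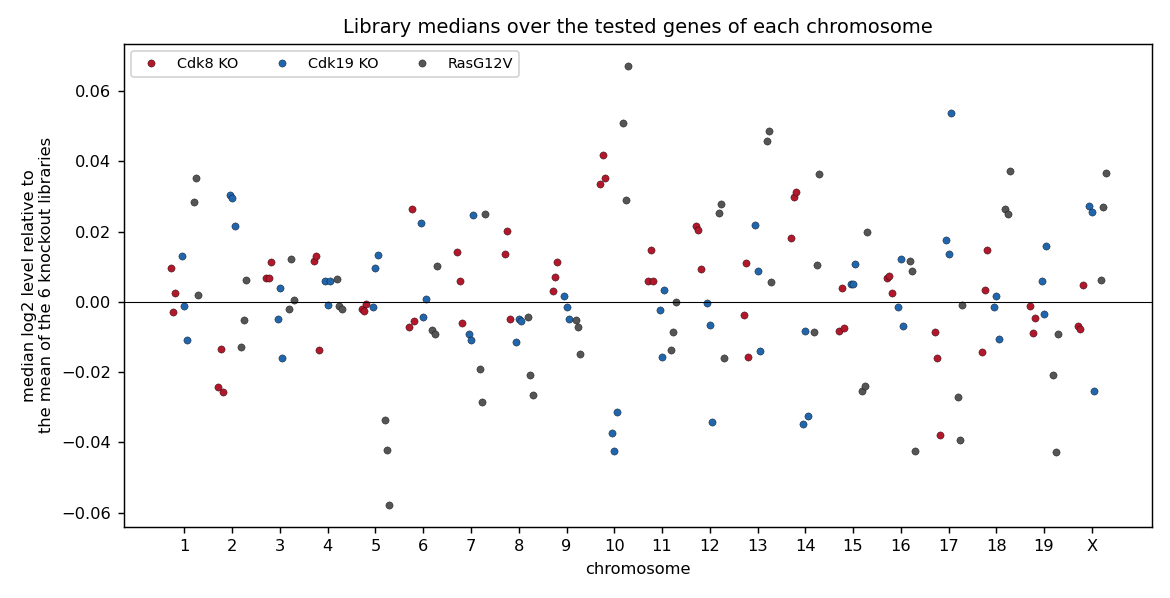
Median log2 level over the tested genes of each chromosome (x axis), relative to the mean of the 6 knockout libraries (y axis), for each library of the Cdk8 knockout (red), the Cdk19 knockout (blue) and RasG12V (grey). On chromosome 10 the 3 Cdk19 knockout points lie at -0.031 to -0.043 and the other 6 points shown lie above 0.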

How the data were processed

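RNA sequencing gave 12 libraries of BMEL cells, grouped by their labelled genotype and transformation, of which the 6 knockout libraries were compared. The authors deposited raw counts of reads per gene, and the submitters' processing notes name FastQC, STAR 2.6.0a and GRCm38.p6. Which annotation release was used is not given in the sources used here. The reverse-strand column (column 4) was used, since it exceeded the forward one 24.7 to 28.9 times. Reads with several places in the genome were not counted, so genes with near-identical copies are uncertain. Reads assigned to no gene were left out of library sizes. Symbols and GRCm38 coordinates came from GENCODE M21 for 54079 of 54146 identifiers.

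The 6 libraries were fitted without a block in edgeR 4.0.16 (R 4.3.3), using filterByExpr, TMM scaling, robust glmQLFit and glmQLFTest, and p-values were adjusted by Benjamini-Hochberg over 13648 genes. SE is approximate: the size of the log2 fold change over the square root of F. Levels are TMM-scaled CPM, and marker sums are unscaled CPM. Alternatives were RLE and upper quartile scaling, other filters, DESeq2 1.42.0, limma-voom (limma 3.58.1), the unstranded column, fits of 12 and 10 libraries, a replicate block and leaving out each library. Figures were drawn with matplotlib 3.10.9.

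Named genes were Cdk8, Cdk19 and Hras, and the 14 largest changes and 10 smallest adjusted p in each direction among called protein-coding genes that averaged 5 CPM or more in the higher knockout, with no overlap between libraries and a symbol that is no model number. Up to 4 called members of a list were named by adjusted p, or its member of smallest adjusted p where none was called. Of 39 lists, 34 were pathway lists, and 188 of 829 entries had too few counts to test. Some named genes are not reported here. Fdps and uncalled members named beside called ones were chosen after their values were seen. The genes and lists were chosen with earlier results of these data known.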

Additional observations from a re-analysis of the deposited data

How the results depend on the processing

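The 496 calls (355 higher, 141 lower in the Cdk8 knockout) became 772 (528 and 244) with no filter on low counts, 771 (521 and 250) when 10 libraries entered the fit, without the libraries of RasG12V and untransformed cells that stood apart, and 15 (11 and 4) when all 12 did. With 1 library left out, calls ranged between 276 and 707, the higher ones between 190 and 475 and the lower ones between 75 and 232. The lowest count came without Cdk8 knockout replicate 3 and the highest without Cdk19 knockout replicate 3, and the cause was not tested. Counts stayed within 1.5 times with RLE size factors (490), upper quartile scaling (470), a filter of 1 CPM in 3 libraries (473), DESeq2 (615), limma-voom (436) and the unstranded column (477). Higher calls made up 67.2% to 77.6% of the total in all these fits, and of the 496 genes 1, Mfsd4a (named after its values were seen), took the other sign, with the unstranded column. Same-numbered libraries of the knockouts correlated at -0.0951, -0.0787 and 0.0654 in their deviations from the group means, and libraries of unlike number at up to 0.1395. With 3 libraries per group, such values cannot decide whether the numbers pair the samples. With the replicate block 435 genes were called (318 and 117), 397 of them in common with the 496.

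Of the 496 genes, 185 were called in all 6 fits that left out 1 library and 20 in none. Of the 93 called genes that the rule named, 57 were called in all 6, and none of them took the other sign in any fit run. Those that lost their call numbered 21, 24 and 27 without Cdk8 knockout replicates 1, 2 and 3, and 23, 28 and 9 without Cdk19 knockout replicates 1, 2 and 3, with adjusted p between 0.0505 and 0.219. In the fit of all 12 libraries 86 named genes lost their call, while Nt5e, Rnf43, Gimd1, Pcx, Sprr2h, Cdh6 and Adgra2 kept it. With RLE or upper quartile scaling no named gene changed its call. The median log2 fold change of chromosome 10 lay between 0.0565 and 0.0845 over the 8 alternatives run on it. Groups of 3 libraries limit what can be called among small differences, and genes at low counts carry wide errors.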

Other observations

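Of 11678 protein-coding genes tested, 343 were higher and 124 lower in the Cdk8 knockout. Among transcripts that encode no protein, 8 of 308 lincRNAs were higher and 5 lower, and the calls among 734 processed pseudogenes were 7, each lower in the Cdk8 knockout. Of all genes tested, 2.6% were higher and 1.03% lower, and the lincRNA share higher and the pseudogene share lower lie near these. No processed pseudogene was higher, against the 2.6% of all genes. Pseudogenes share sequence with their parent genes, and their counts are uncertain for that reason. The genes named here were chosen after their values were seen.

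The largest difference of any gene called was in Gm38020, a transcript on the X chromosome of undetermined coding status, which had 0.177, 0.190 and 0.335 CPM in the Cdk8 knockout, against 2.76, 3.46 and 3.15 CPM in the Cdk19 knockout (log2 fold change -3.71, SE 0.28, adjusted p = 2.44e-07). RasG12V libraries had 0.728, 0.245 and 0.181 CPM and untransformed libraries 0.178, 0.310 and 0.269 CPM, so the Cdk19 knockout libraries were the highest of the 12. The pseudogene Gm5117 had 2.06, 1.77 and 1.40 CPM in the Cdk8 knockout, against 6.92, 3.98 and 4.76 CPM in the Cdk19 knockout (log2 fold change -1.59, SE 0.21, adjusted p = 0.000295), with 1.53, 1.39 and 1.06 CPM in RasG12V libraries. The pseudogenes Gm4971 and Gm5939 were lower as well, with log2 fold changes of -1.92 (SE 0.26) and -1.68 (SE 0.26).

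The mitochondrial small ribosomal RNA gene mt-Rnr1 had 159, 159.6 and 136 CPM in the Cdk8 knockout, against 289, 262 and 231 CPM in the Cdk19 knockout (log2 fold change -0.78, SE 0.08, adjusted p = 4.03e-05), and 193, 208 and 363 CPM in RasG12V libraries. It was the 1 gene called of 2 mitochondrial ribosomal RNA genes tested. The share of all ribosomal RNA genes, mt-Rnr1 among them, was 0.0503% to 0.0636% in the Cdk8 knockout, against 0.0759% to 0.0869% in the Cdk19 knockout. The libraries were rRNA-depleted, and the part of depletion in these values was not tested. Among lincRNAs, Lncenc1 was higher in the Cdk8 knockout (7.20, 7.72 and 8.84 CPM, against 4.98, 4.67 and 4.86 CPM in the Cdk19 knockout; log2 fold change 0.71, SE 0.13, adjusted p = 0.00308).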
